A study of Homo sapiens with 16 samples.

Results

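CD14-IL1B is the name that the study's deposited annotation gives to a small cluster of myeloid cells in mouse mammary tumors. The cells were taken by that name alone, and there were 733 of them among 48824 cells of 22 clusters once each barcode shared between long-term pools was counted once. They made up part of 25512 cells in 7 monocyte and macrophage clusters, and the other 6 were Macro-M1, Macro-M2, Macro-MKI67, Macro-others, CD16-CDKN1C and CD14-PF4. The cells came from 16 single-cell RNA-seq pools of tumors grown in female FVB mice bought at 6 weeks of age. Pieces of 2 mouse tumors kept by transplantation between mice of one strain, LPA1-T22 (T22) and LPA1-T127 (T127), were placed in the mammary fat pad. Per the labels, mice were assigned to treatment 14 days after transplantation of T22 and 10 days after that of T127. They received olaparib, an inhibitor of the DNA repair enzyme PARP, at 50 mg/kg by mouth every day, or vehicle. In the short-term experiment, 4 pools held T22 tumors and 4 held T127 tumors, each treated for 4 or 8 days. In the long-term experiment, 8 pools held tumors treated for 20 days, both single-strain tumors and pairs of T22 and T127 carried by the same mouse, where T22 had been placed 14 days earlier. Every pool mixed olaparib and vehicle tumors, and the files used here do not tie a cell to its tumor. Olaparib was therefore not compared with vehicle. The 8 long-term, 4 T22 and 4 T127 pools each counted as 1 sample, and no p-value was computed.

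Conventional dendritic cells are the myeloid cells that carry antigen to T cells, and they depend on the growth factor receptor Flt3 and express the transcription factor Zbtb46. Their cDC1 subset carries Xcr1, a chemokine receptor, and Clec9a, a receptor for dead cells, and is known for presenting tumor antigen to CD8 T cells. The cDC2 subset carries lectins such as Cd209a and Mgl2 and is known mainly for presenting to CD4 T cells. Both subsets can mature, switch on Ccr7 and the actin-bundling protein Fscn1 and leave for the lymph node. Monocytes and macrophages are instead kept by the receptor Csf1r, and make much of the inflammatory cytokine interleukin-1 beta (Il1b) and of Cd14, the co-receptor for bacterial lipopolysaccharide. Mgl2 is also found on some macrophages, and the chemokine Ccl17 on cDC2, mature dendritic cells and some macrophages, so neither gene defines a cell type alone.

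The long-term pools held 446 CD14-IL1B cells, between 23 and 92 a pool, the T22 pools held 143 (34 to 39 a pool) and the T127 pools held 144 (25 to 42). Their share of all monocyte and macrophage cells was 2.89% in the long-term pools (Clopper-Pearson 95% interval 2.63 to 3.16, 15451 cells), where single pools ran from 1.29% to 4.31% with a median of 2.98%. In the T22 pools it was 1.82% (1.54 to 2.14, 7861 cells; pools 1.71% to 1.92%) and in the T127 pools 6.55% (5.55 to 7.66, 2200 cells; pools 4.75% to 8.05%). All 4 T127 pools lay above all 4 T22 pools. These intervals, and all that follow, cover counting error only.

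The 16 pools held 34755906 to 55600377 UMIs and 1855 to 5670 cells each as deposited. CD14-IL1B cells were not shallow: their median was 13061 UMIs and 2858 genes in the long-term pools, 19489 and 3501 in T22, and 16693 and 3565 in T127, against long-term medians from 4706 UMIs in CD16-CDKN1C to 15227 in Macro-MKI67. The shallowest CD14-IL1B cell had 3185 UMIs. Median shares of mitochondrial UMIs were 0.509%, 0.575% and 0.936% in the same order. Barcodes were shared between long-term pools. Every long-term pool lost cells when each barcode was counted once, most of all pool 1 (5670 to 3066) and pool 2 (5405 to 2948). Of the 446 long-term CD14-IL1B cells 93 had a shared barcode (31, 22 and 40 in pools 1, 2 and 3, 0 in pools 4 to 8). All 93 were the deepest copy of their barcode, with a median of 12164 UMIs against 1781.5 in the 130 other copies. None of those 130 was itself named CD14-IL1B: 69 were named CD16-CDKN1C, 59 Macro-others, 1 Macro-MKI67 and 1 endothelial. With every copy kept, the long-term share was 2.23%, and the log2 ratios to the other 6 clusters of the genes in the cluster's name stayed close to those given next (Il1b -0.23, Cd14 -0.19).

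In the long-term pools the genes that name the cluster were slightly lower in it than in the other 6 clusters together. Levels are given as CPM, the UMIs of a gene scaled to a total of 1000000 UMIs. Il1b was at 2890 CPM in the long-term CD14-IL1B cells, against 3422 in the other 6 clusters together, a ratio of 0.845 (95% interval 0.832 to 0.857). The 8 pools had a lowest value of 1620, a median of 2764 and a highest of 3599 CPM. In each of the 8 pools the CD14-IL1B cells lay below the other 6 clusters of the same pool. Cd14 was at 1577 CPM against 1813, a ratio of 0.870, and ran from 913 through a median of 1420 to 2093 CPM over the pools. Again 0 of 8 pools had the higher level in CD14-IL1B cells. Among single long-term clusters, Il1b reached 4827 CPM in Macro-M1, 3732 in Macro-others, 3131 in Macro-M2 and 3116 in CD16-CDKN1C, and was below its CD14-IL1B level in Macro-MKI67 (2628) and CD14-PF4 (1513).

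The short-term pools had the same direction. In the T22 pools, Il1b in CD14-IL1B cells was at 1127, 975, 953 and 1102 CPM in pools 1 to 4, against 2097 to 2314 in the other 6 clusters. Cd14 there was at 146, 321, 491 and 274 CPM, against 1054 to 1094. In T127, Il1b was at 2174, 2022, 2310 and 2500 CPM against 3185 to 3480, and Cd14 at 1143, 634, 1112 and 1352 CPM against 2351 to 2732. Thus in all 16 pools both genes were lower in the cells named for them than in their monocyte and macrophage neighbours.

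The other pair of marker genes did stand out in the long-term pools. Ccl17, a chemokine that attracts Ccr4-bearing T cells, was at 1325 CPM against 82.6 in the other 6 clusters, 16.04-fold higher (15.6 to 16.5). Its pool values ran from 987 through a median of 1389 to 1739 CPM, all above the 54.0 to 106 CPM of the other clusters. Mgl2, a lectin that binds galactose-type sugars, was at 553 CPM against 121, 4.56-fold higher, with pools from 464 through 546 to 725 CPM. CD14-IL1B had the highest Ccl17 and Mgl2 of all 22 long-term clusters, and the next monocyte or macrophage clusters were CD14-PF4 for Ccl17 (392 CPM) and Macro-MKI67 for Mgl2 (222 CPM).

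In T127 the same direction held in every pool, with Ccl17 at 923, 1557, 968 and 2429 CPM (other 6 clusters 363 to 748) and Mgl2 at 320, 534, 693 and 493.03 CPM (261 to 338). In T22 Mgl2 was not high: its pools had 20.3, 36.4, 51.8 and 30.5 CPM, against 40.6 to 60.8 CPM in the other 6 clusters. Ccl17 in T22 spread widely, at 394, 23.4, 137 and 199 CPM, and the 23.4 CPM of pool 2 lay within the 11.9 to 24.0 CPM of the other clusters.

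**Figure D1:**
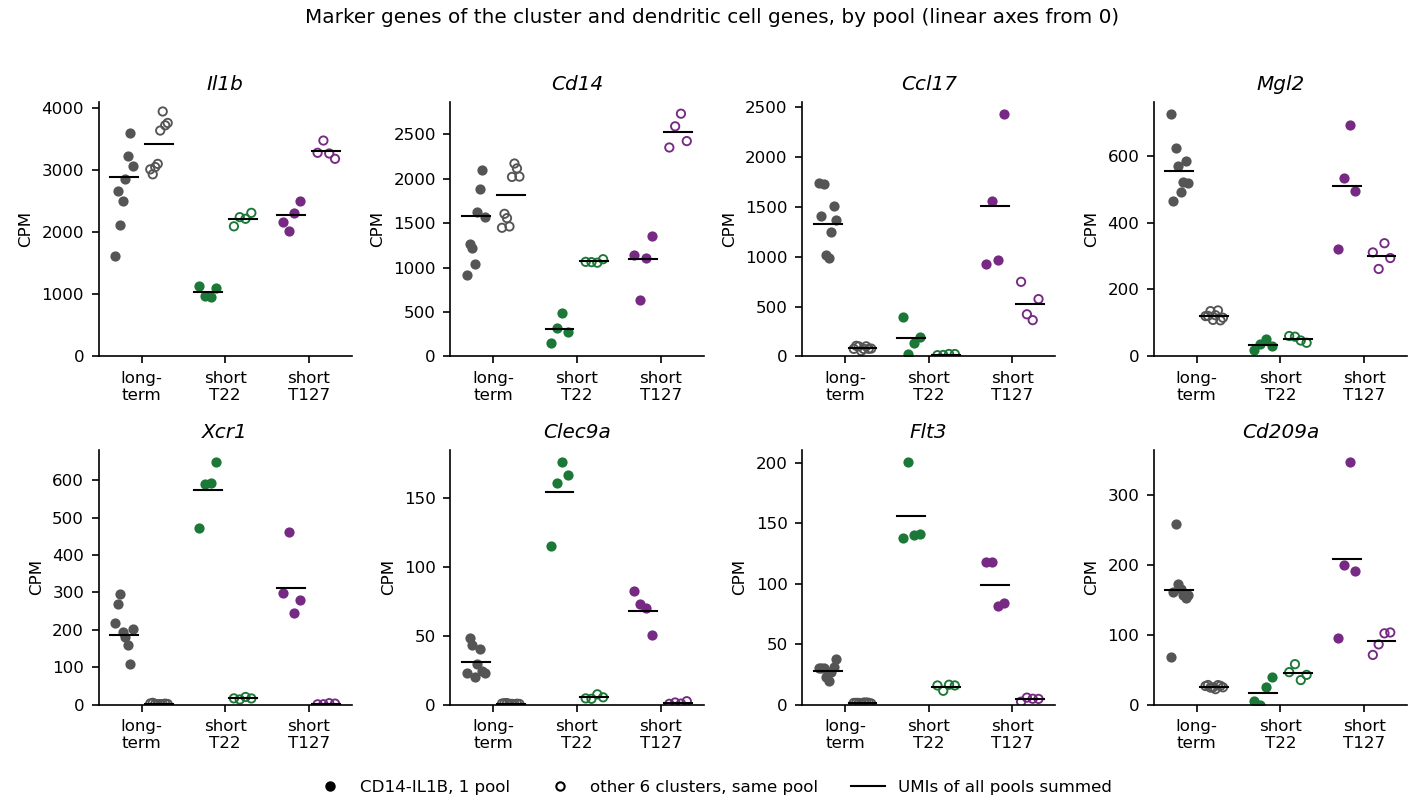
Level of 8 genes (CPM, linear axes from 0) in each pool of the long-term, T22 and T127 experiments, with CD14-IL1B cells as filled points, the other 6 monocyte and macrophage clusters of the same pool as open points and the level over all pools as a line. Filled points lie below open ones in all 16 pools for Il1b and Cd14 and above them in every pool for Xcr1 and Clec9a, while Mgl2 and Cd209a lie above in all long-term and T127 pools, and in T22 Cd209a lies below in 4 of 4 pools and Mgl2 in 3.

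Most cDC1 genes and genes common to conventional dendritic cells were higher in CD14-IL1B cells than in the other 6 clusters, and most macrophage genes were lower. The clusters were drawn from these same genes, so the ratios describe the cluster and test nothing. A gene was counted as higher or lower when its CPM ratio, with 1 CPM added to both sides, was past 2-fold, among genes at 10 CPM or more in either. In the long-term pools 357 of 7187 genes (4.97%) were higher and 535 (7.44%) lower. In T22 these were 472 (6.09%) and 999 (12.9%) of 7752 genes, and in T127 400 (5.05%) and 900 (11.4%) of 7924. The median log2 ratio of all these genes was -0.05 in the long-term pools, -0.18 in T22 and -0.11 in T127, and the list medians below stand beside it.

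Of the cDC1 list, 7 of 8 genes were higher and none lower in the long-term pools, with a median log2 ratio of 2.80. Xcr1 was at 186 CPM against 1.79 in the other 6 clusters, 104-fold (90.4 to 120). Its 8 pools had a lowest value of 109, a median of 197.5 and a highest of 297 CPM, against 0.8 to 4.5 in the other clusters. The highest 3 values, 219, 270 and 297 CPM, were those of pools 1, 2 and 3, the pools whose CD14-IL1B cells included shared barcodes. The other 5 ran from 109 to 201.06 CPM, all above the other clusters. The part of the shared barcodes in this was not tested. Clec9a was at 30.7 CPM against 0.587, 52.3-fold (40.1 to 68.8), with pools from 20.1 through 26.6 to 48.7 CPM. Itgae, the integrin CD103 of tissue cDC1, was at 101 against 2.41 CPM, and Naaa, a lipid amidase, at 729 against 75.8 CPM. Wdfy4, which cDC1 need to present antigen from dead cells, was at 118 against 22.3 CPM, the RNA sensor Tlr3 at 49.0 against 15.3 CPM, and Irf8, the transcription factor on which cDC1 depend, at 674 against 238 CPM. Cadm1 was the exception, at 15.8 against 28.6 CPM. Xcr1, Clec9a, Naaa and Wdfy4 were highest in CD14-IL1B of all 22 long-term clusters, while Irf8 was higher in plasmacytoid dendritic cells (2746 CPM), where Xcr1 had 0 UMIs.

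In the short-term pools the same genes were also far above the other 6 clusters. In T22, Xcr1 was at 472, 592, 593 and 648 CPM against 13.5 to 20.2 in the other 6 clusters, and Clec9a at 116, 161, 176 and 167 CPM against 5.32 CPM in all of them together. In T127, Xcr1 was at 297, 461, 246 and 281 CPM against 0.5 to 3.6, and Clec9a at 82.4, 73.4, 70.4 and 50.8 CPM against 1.25. The cDC1 list had 7 of its 8 genes higher in T22 (median log2 ratio 3.24) and all 8 in T127 (2.86), with none lower in either.

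Genes common to conventional dendritic cells moved the same way. In the long-term pools 7 of 8 were higher and none lower, with a median log2 ratio of 2.27, in T22 5 (1.83) and in T127 7 (2.05). Flt3 was at 28.0 CPM against 1.31 in the long-term pools, 21.3-fold (17.2 to 26.4), with pools from 19.1 through 30.01 to 37.3 CPM. It was at 137, 200, 140 and 141 CPM in the T22 pools and 118, 118, 81.6 and 84.2 CPM in the T127 pools, against 14.8 and 4.38 CPM in the other 6 clusters. Zbtb46 was at 21.8 against 1.64 CPM in the long-term pools, 13.2-fold (10.6 to 16.5), with pools from 11.2 through 21.5 to 35.6 CPM. Kit, the stem cell factor receptor, was at 24.0 against 3.46 CPM, and Batf3, a partner of Irf8 that cDC1 need, at 97.9 against 42.3 CPM. Csf1r, the macrophage growth factor receptor, went the other way, at 169 against 566 CPM.

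The cDC2 list was mixed. In the long-term pools 3 of 7 measured genes were higher and 1 lower (median log2 ratio 0.80), in T127 1 and 2 (0.68), and in T22 0 and 3 (-0.76). Cd209a was at 164 CPM in the long-term cells against 25.5, 6.43-fold (5.99 to 6.89), with pools from 68.7 through 159 to 259 CPM. In T127 its pools had 95.3, 200, 347 and 191 CPM against 71.1 to 103, and in T22 4.34, 0, 25.2 and 40.1 CPM against 35.0 to 57.9. T22 CD14-IL1B cells thus had less Cd209a than the other 6 clusters, at 16.4 against 45.4 CPM over all pools. Irf4, a transcription factor of cDC2, was higher in the long-term cells (26.2 against 4.50 CPM), while Clec10a (36.5 against 20.5 CPM) and Klf4 (173 against 110 CPM) did not pass 2-fold and Sirpa was lower (66.4 against 150 CPM).

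Maturation genes were higher in part in all experiments and varied widely between pools. Of the mature dendritic cell list, 7 of 11 measured genes were higher in the long-term pools (median log2 ratio 1.68), 7 of 11 in T22 (2.59) and 8 of 12 in T127 (1.62), with none lower. Ccr7 was at 105 CPM against 20.5 in the long-term pools, but its pools ran from 14.98 through 82.2 to 323 CPM and 7 of 8 were above the other 6 clusters. Fscn1 was at 114 against 20.2 CPM, with pools from 3.75 through 82.2 to 339 CPM and again 7 of 8 above. CD14-PF4 cells had more of both, at 394 CPM of Ccr7 and 439 CPM of Fscn1. In T22, Ccr7 was at 428, 62.4, 112 and 255 CPM and Fscn1 at 344, 74.1, 11.2 and 143 CPM, of which the 11.2 CPM of pool 3 lay below the 31.4 CPM of the other 6 clusters. In T127 Ccr7 was at 207, 424, 171 and 251 CPM and Fscn1 at 291, 247, 150 and 267 CPM. Il12b, the subunit of interleukin-12 that mature dendritic cells make, was at 126 against 14.98 CPM in the long-term cells and Ccl22, the other Ccr4 ligand, at 54.9 against 9.49 CPM. Few cells carried these levels: when the cells were clustered again, as described further on, 41 of the 733, 15 of them long-term, formed a mature dendritic cell-like sub-cluster. The other members of all experiments together had Fscn1 at 5.39 and Il12b at 13.3 CPM. That sub-cluster took its name from such genes, so low levels in the rest are in part built in.

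Antigen presentation genes were higher in part. Of 9 measured MHC class II genes, 4 were higher in the long-term cells and none lower (median log2 ratio 0.55), as were 2 of 10 in T22 (0.11) and 5 of 9 in T127 (1.19). The higher ones were H2-DMb2 (510 against 122 CPM), H2-DMa (1373 against 613 CPM), H2-Oa (110 against 21.7 CPM) and the class II transactivator Ciita (95.7 against 38.0 CPM). The presenting chains were high in both groups, with H2-Aa at 16320 against 12132 CPM and H2-Ab1 at 14186 against 11421 CPM, and Cd74, the invariant chain, was at 14171 against 13404 CPM. Of 9 costimulation genes 4 were higher: Cd80 (43.4 against 13.2 CPM), Tnfsf9 (64.5 against 17.5 CPM), Pdcd1lg2 (20.0 against 5.56 CPM) and Cd200 (12.96 against 4.78 CPM). In T22 3 of 8 were higher and in T127 2 of 9, with none lower.

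Macrophage genes were low. Of 12, 11 were lower and none higher in the long-term cells, with a median log2 ratio of -1.94, 12 were lower in T22 (-3.29) and 11 in T127 (-3.73). C1qa, a chain of the first complement component, was at 2334 CPM against 9026, Ms4a7 at 185 against 1871, the lipid carrier Apoe at 65.8 against 477, and Adgre1, which encodes F4/80, at 14.2 against 108. The mannose receptor Mrc1, at 284 against 292 CPM, was the one that did not pass 2-fold. Complement and Fc receptor genes were lower for 7 of 10 (median log2 ratio -1.34), with C3ar1 at 54.4 against 311 CPM, C5ar1 at 43.8 against 178 CPM and Fcer1g at 1921 against 3970 CPM, and for 9 in both T22 and T127.

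Classical monocyte genes were lower too, though less so in the long-term pools, where 3 of 10 measured genes were lower and none higher (median log2 ratio -0.71). Ly6c2, the surface antigen of these monocytes, was at 34.6 against 71.7 CPM, the clotting factor chain F13a1 at 51.7 against 111 and haptoglobin (Hp) at 19.5 against 42.0. Chil3 (517 against 551 CPM) and the chemokine receptor Ccr2 (38.6 against 21.4 CPM) did not pass 2-fold. In T22 8 of 11 were lower and 1 higher (-1.29), and in T127 all 11 were lower (-3.16). Of nonclassical monocyte genes, none was higher and 1 of 5 lower in the long-term cells, 1 and 2 of 6 in T22 and 1 and 2 of 5 in T127.

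Markers of cells outside these lineages were mostly too low to be counted. Basophil and mast cell genes and eosinophil genes had none at 10 CPM on either side in any experiment. Of neutrophil genes none was higher, and 2 of 3, 2 of 2 and 4 of 4 were lower in the long-term, T22 and T127 cells. Of plasmacytoid dendritic cell genes none of 2 passed 2-fold in the long-term cells or T127, and 1 of 3 was higher in T22. Of NK cell genes only Gzma in T22 was counted (62.2 against 6.99 CPM), and 172 of the 174 Gzma UMIs of the sub-cluster that held it came from 1 cell. Single T cell and B cell genes were measured and none was higher in any experiment, and the 1 endothelial gene measured, in T127, was lower.

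Epithelial genes moved in part. Of 7 measured malignant cell and fibroblast genes, 2 were higher and 3 lower in the long-term cells, none and 3 of 7 in T22, and 1 and 1 of 5 in T127. Epcam, an adhesion protein of epithelia and of some dendritic cells, was at 992 against 103 CPM with pools from 832 to 1381, and Cdh1, E-cadherin, at 78.6 against 15.8 CPM. The keratins did not follow, with Krt18 lower (10.1 against 31.2 CPM) and Krt8 at 12.3 against 24.6 CPM, and the fibroblast gene Dcn was lower (20.0 against 70.7 CPM). Long-term malignant cells had 473 CPM of Epcam and 721 CPM of Krt8. In the T127 pools Epcam was at 636 CPM in CD14-IL1B cells and at 1.43 CPM in malignant cells, and in the T22 pools at 167 and 890 CPM. The part of RNA from malignant cells in these levels was not tested.

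**Figure D2:**
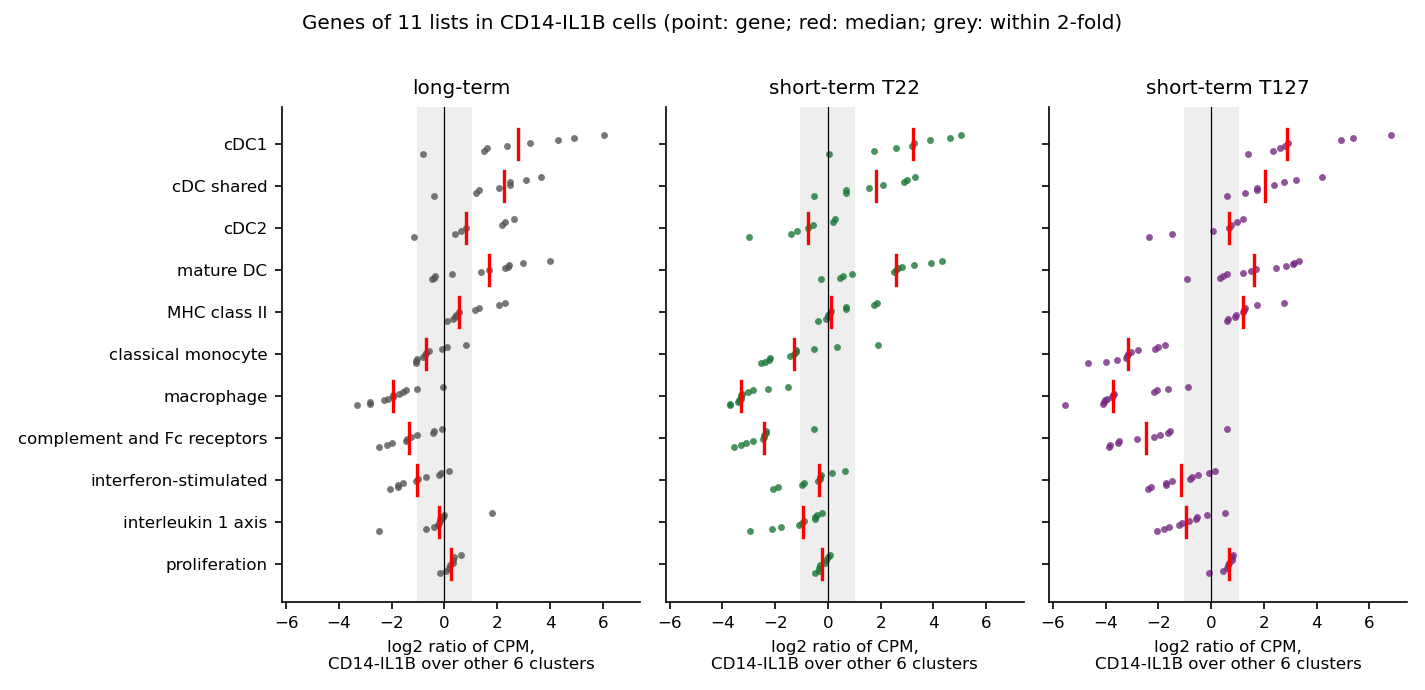
Log2 ratio of CPM of CD14-IL1B cells over the other 6 monocyte and macrophage clusters for the measured genes of 11 lists, one panel per experiment, with a point per gene, a red bar at each list's median and a grey band within 2-fold. The cDC1 and shared dendritic cell lists lie to the right (long-term medians 2.80 and 2.27) and the macrophage list to the left (-1.94).

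Of 10 genes of the interleukin-1 pathway, 1 was higher and 1 lower in the long-term cells (median log2 ratio -0.20), none and 4 in T22 (-0.95), and none and 5 in T127 (-0.98). The higher one was Il1r2, the decoy receptor that takes up interleukin-1 without signalling (317 against 91.5 CPM), and the lower one Il1a (45.3 against 260 CPM). The receptor antagonist Il1rn (131 against 152 CPM) and the inflammasome genes Nlrp3 (156 against 159 CPM) and Pycard (194 against 217 CPM) were close to the other clusters. Of 7 genes of lipopolysaccharide and Toll-like receptor sensing, none was higher and 4 were lower, against 1 and 5 in T22 and 1 and 6 in T127.

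Of 18 measured chemokines, 2 (Ccl17 and Ccl22) were higher and 8 lower in the long-term cells, against 3 and 10 of 16 in T22 and 2 and 12 in T127. The lower ones included the monocyte attractants Ccl12 (90.7 against 525 CPM) and Ccl8 (112 against 546 CPM) and the chemokine Ccl4 (465 against 1606 CPM). The neutrophil attractant Cxcl2 was at 3665 against 3104 CPM. Of 8 chemokine receptors 2 (Xcr1 and Ccr7) were higher and 2 lower, the monocyte receptor Cx3cr1 (36.0 against 227 CPM) and Cxcr4 (12.8 against 50.5 CPM), against 2 and 4 of 8 in T22 and 3 and 4 in T127. Of 13 C-type lectins 3 (Mgl2, Cd209a and Clec9a) were higher and 2 lower, Clec4a2 (136 against 321 CPM) and Clec4d (29.3 against 64.6 CPM), with a median log2 ratio of 0.11. In T22 2 of 13 were higher and 9 lower (-1.41), and in T127 2 and 7 (-1.32). Of 8 cytokines Il12b alone was higher, and Il10 (1.12 against 10.2 CPM), Csf1 (2.08 against 22.4 CPM), Tnfsf13b (19.0 against 56.3 CPM) and Vegfa (26.2 against 61.0 CPM) were lower. In T22 1 of 8 was higher and 5 lower, and in T127 1 and 2 of 6.

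Of 17 lineage transcription factors, 6 were higher and 3 lower in the long-term cells, 6 and 4 in T22, and 4 and 5 in T127. The higher ones in the long-term cells were Irf4, Irf8, Zbtb46, Batf3, Id2 (759 against 264 CPM), on which cDC1 depend, and Bhlhe40 (146 against 57.1 CPM). The lower ones included the monocyte factor Cebpa (23.0 against 55.1 CPM) and the macrophage factor Maf (31.8 against 230 CPM). Interferon response genes were lower for 6 of 10 (median log2 ratio -1.04), 2 in T22 (-0.34) and 5 in T127 (-1.14), with none higher. Of 7 type 2 activation genes none was higher, and Arg1, arginase, was lower (38.4 against 187 CPM), as were 4 of 5 in T22 (-1.67) and 6 of 7 in T127 (-3.21). Of 15 immediate early genes 1, Atf3, was lower (191 against 439 CPM), as were 3 in T22 and 4 in T127. None of 8 proliferation genes passed 2-fold in any experiment.

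The study had also listed genes for its own macrophage and monocyte states. It chose those lists on these samples, so they are not independent evidence of direction. The list for the state TAM_C4 held 25 genes. Of these, 16 were higher in the long-term CD14-IL1B cells, 16 in T22 and 17 in T127, with none lower. The median log2 ratios were 1.27, 1.25 and 1.23 in the same order. Of all long-term clusters, CD14-IL1B had the highest level for 13 of the 25. The share of all genes highest in CD14-IL1B was not computed, so this count only describes. The genes higher in the long-term cells included the protease inhibitor Cst3 (41136 against 12862 CPM), the aspartic protease Napsa (1225 against 221 CPM), Plbd1 (803 against 126 CPM) and Lsp1 (1370 against 252 CPM). The lists for the other states went down or were mixed in the long-term cells, with none of 25 higher and 16 lower for TAM_C3, none and 14 for TAM_C1, 1 and 17 for TAM_C0, 4 and 1 for Mono_C2, and none and 1 of 8 for Mono_C5.

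Genes at 50 CPM or more that kept one side in all 8 long-term pools were ranked by ratio with 1 CPM added to both sides. Xcr1 led the 15 highest, which are given in order of their folds without that addition. Next came Itgae (41.8-fold, pools 50.4 to 145 CPM), the tight junction gene Cldn1 (25.9-fold, 61.6 CPM), the interferon-inducible Ifi205 (18.4-fold, 125 CPM), Ccl17, Plet1 (12.7-fold, 440 CPM), the lectin receptor Asgr2 (12.6-fold, 1996 CPM) and the pentraxin Ptx3 (12.3-fold, 54.1 CPM). Igflr1 (11.3-fold, 110 CPM), Gnb4 (9.98-fold, 121 CPM), Epcam (9.64-fold), Naaa (9.62-fold), Sept6 (9.52-fold, 66.9 CPM), the peptidase Dpp4 (8.42-fold, 57.1 CPM) and the gut-homing integrin chain Itgb7 (8.23-fold, 80.8 CPM) completed them. The 10 lowest, all under their level in the other 6 clusters, were Adamdec1 (10.9 against 133 CPM), Tlr12 (4.16 against 54.7), Ms4a7, Klra2 (7.68 against 77.1), Olfml3 (13.9 against 130.3), Tmem119 (18.1 against 159), Ptgs1 (14.7 against 129), the adhesion molecule Vcam1 (87.4 against 713), Itga9 (5.92 against 51.7) and Apoe.

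The 733 cells were then clustered again with all genes of the hand-written lists left out, so that the lists could describe the result. A sub-cluster took the name of a cell type, with the ending -like, when at least 3 of its markers were at 10 CPM or more and 1.5-fold or more above the other CD14-IL1B cells. Where several types passed, the one with the largest share of its markers passing gave the name. By this count of markers all 10 sub-clusters took a name. The name of sub-cluster 2, cDC2-like, was dropped after its leading genes, given below, were seen, and it is called by its number. The other names were kept as the count gave them. Those named cDC1-like held 337 cells, 46.0% of all (42.3 to 49.7), sub-clusters 2 and 5 together 190 cells (25.9%, 22.8 to 29.3) and those named macrophage-like 131 (17.9%). These shares merge 3 experiments that differed. The cDC1-like sub-clusters held 35.4% of the long-term, 74.1% of the T22 and 50.7% of the T127 cells. In the same order, sub-clusters 2 and 5 held 31.2%, 4.20% and 31.25%, and the macrophage-like ones 24.7%, 9.09% and 5.56%. The mature dendritic cell-like sub-cluster held 41 cells (5.59%) and the classical monocyte-like one 34 (4.64%), and no sub-cluster was named after plasmacytoid dendritic cells. The 3 experiments were clustered together without correction for experiment or pool. Where most cells of a sub-cluster came from 1 experiment, its leading genes cannot be told apart from differences between the experiments.

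The 4 sub-clusters named cDC1-like were numbers 1, 4, 6 and 7. Sub-cluster 1 had 141 cells, 130 of them from the long-term pools, and carried 5 of 8 cDC1 markers. Its leading genes included the T cell attractant Cxcl9 (638 against 59.8 CPM in the other CD14-IL1B cells) and the lectin langerin, Cd207 (1074 against 269 CPM). Sub-cluster 4 had 81 cells, 77 of them from T22, and 7 of 8 markers. Gzma, Gzmb and Xcl1 stood among its 10 leading genes, but 172 of 174, 83 of 83 and 90 of 90 UMIs of these NK cell genes came from a single cell. Without that cell it still carried 7 of 8 cDC1 markers, and Egr3 (346 CPM, 8.199-fold) and Clec9a (208 against 47.7 CPM, 4.29-fold) were among its leading genes. Sub-cluster 6 had 66 cells, 58 of them from T127, and had all 8 markers, and was led by Ears2, Gcnt2, Timd4 and the interferon-induced Ifitm1 (907 against 219 CPM). Sub-cluster 7 had 49 cells from all 3 experiments (22, 14 and 13) and 6 of 8 markers. All of its 10 leading genes were histone genes, such as Hist1h3c (447 against 19.4 CPM), Mki67, a gene of dividing cells, was at 655 CPM, and the median depth was 23530 UMIs.

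Sub-clusters 2 and 5 both came out as cDC2-like by the count of markers. Sub-cluster 2 had 122 cells, 114 of them from the long-term pools, and 4 of 8 cDC2 markers. None of its 10 leading genes was on the cDC2 list. Sub-clusters 1, 6 and 7 likewise had no leading gene on the cDC1 list but kept their names. The leading genes of sub-cluster 2 were led by Wfdc18 (972 against 47.6 CPM), and included the neutrophil gene S100a9 (58.9 against 5.49 CPM), the granulocyte transcription factor Cebpe, the macrophage elastase Mmp12, Ccl17 of the maturation list (3461 against 679 CPM) and Epcam of the epithelial list (2222 against 454 CPM). Sub-cluster 5, which kept the name cDC2-like, had 68 cells, 43 of them from T127, 25 from the long-term pools and none from T22, and 6 of 8 markers, beside 3 of 14 maturation and 3 of 12 macrophage markers. The cell division genes Anln and Hmmr and E-cadherin, Cdh1 (351 against 48.9 CPM), led it, and its Irf4 was at 123 against 19.7 CPM. The name of sub-cluster 5 rests on the count of markers alone. Sub-clusters 2 and 5 together, 25.9% of the cells, held 1.75% of the Flt3 UMIs and 25.1% of the C1qa UMIs. The part of sub-cluster 5 in these is not given.

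Sub-clusters 3, 8, 9 and 10 took other names. Sub-cluster 3, with 99 cells (89 from the long-term pools), carried 11 of 12 macrophage markers but also 6 of 8 cDC2 and 6 of 11 classical monocyte markers. It was led by Retnla (1159 against 0.98 CPM) and genes of tissue-resident macrophages, Folr2 (125 CPM), Lyve1 (87.9 CPM) and Pf4 (678 against 20.5 CPM). Sub-cluster 10, with 32 cells (21 long-term, 11 T22), carried 11 of 12 macrophage and 3 of 6 plasmacytoid dendritic cell markers, with Ms4a7 at 1548 against 44.8 CPM, Vcam1 at 752 against 17.1 CPM, Apoe at 951 against 20.6 CPM and Il1a at 597 against 9.51 CPM. Sub-cluster 8, with 41 cells (15, 16 and 10 in the long-term, T22 and T127 pools), carried 12 of 14 maturation markers: Fscn1 was at 2762 against 5.39 CPM, Il12b at 4196 against 13.3 CPM, Il4i1 at 1106 against 6.67 CPM and Ccl5 at 3004 against 30.7 CPM. Sub-cluster 9, with 34 cells (24, 2 and 8), carried all 11 classical monocyte and 6 of 12 macrophage markers, with Chil3 at 12857 against 13.8 CPM, Thbs1 at 1497 CPM and Arg1 at 715 CPM, and was the shallowest, with a median of 7135 UMIs.

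**Figure D3:**
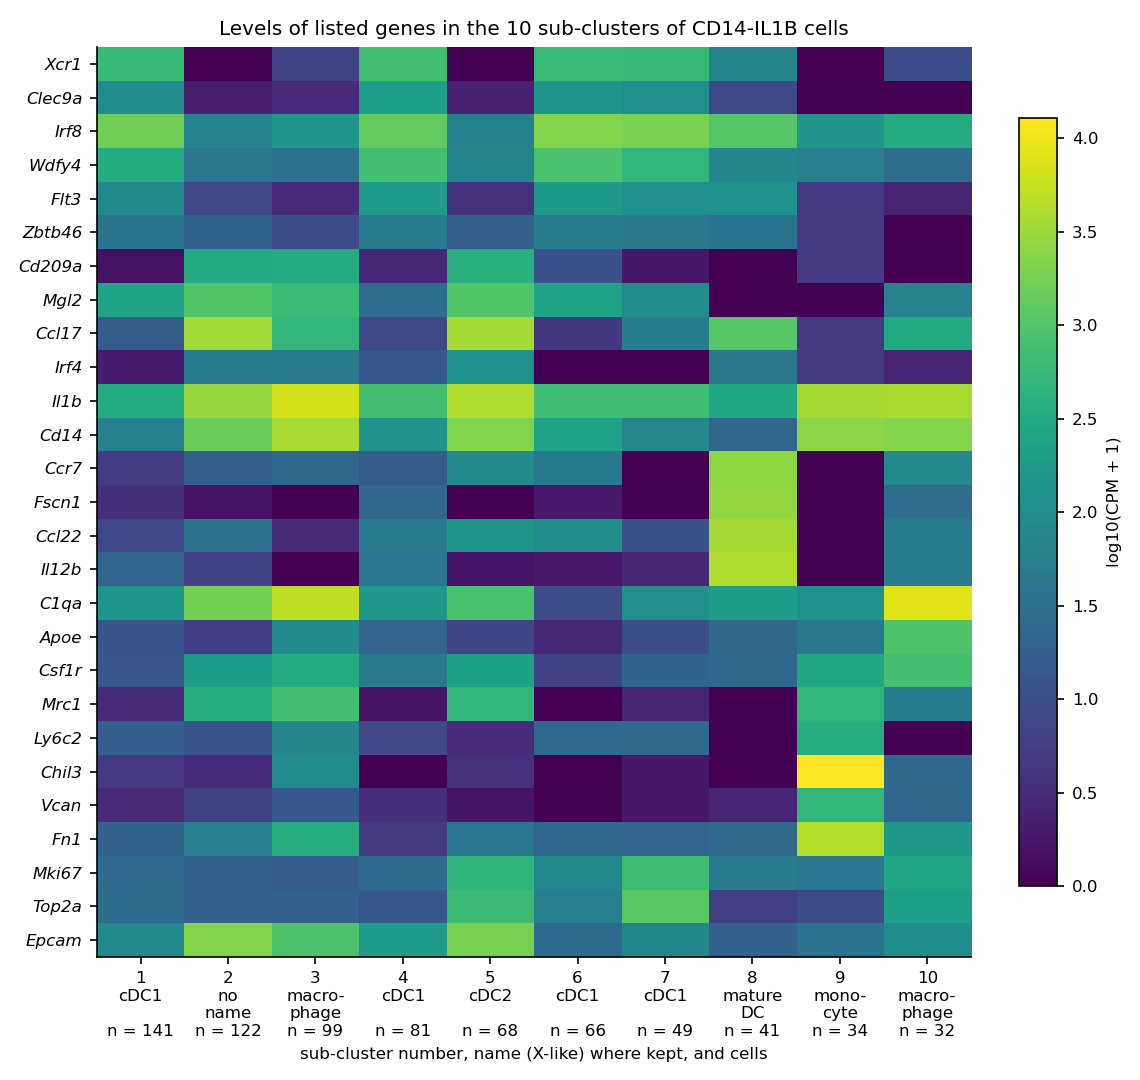
Level of 27 genes (rows) in each of the 10 sub-clusters of CD14-IL1B cells (columns, with their number, cell type name where one was kept, and number of cells), coloured by log10 of CPM plus 1. Xcr1 and Clec9a are high in sub-clusters 1, 4, 6 and 7, where Cd14 is at most 244 CPM, and Ccl17 is highest in sub-clusters 2 and 5 (3461 and 3553 CPM), which share Cd209a and Mgl2 with sub-cluster 3.

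The genes that describe the whole cluster sat in different cells of it. Xcr1 was at 620 CPM in the cDC1-like cells, 0 in sub-clusters 2 and 5 and in the classical monocyte-like cells, 6.73 in the macrophage-like and 67.4 in the mature dendritic cell-like cells. Of its 3546 UMIs, 98.5% came from cDC1-like cells and 0 from sub-clusters 2 and 5. Clec9a had 98.6% of its UMIs in cDC1-like cells (139 CPM), Irf8 88.5% (1744 CPM), Flt3 89.0% (135 CPM) and Zbtb46 73.0% (44.6 CPM). The cDC1-like class took its name from a list that holds Xcr1, Clec9a and Irf8, so their high shares there are in part built in. Flt3 was low in sub-clusters 2 and 5 (4.81 CPM) and Zbtb46 intermediate (18.6 CPM), against 125 and 38.7 CPM in the mature dendritic cell-like cells and 2.07 and 5.70 CPM in the macrophage-like cells.

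Sub-clusters 2 and 5, 25.9% of the total, held 87.1% of the Ccl17 UMIs (3503 CPM, against 18.8 CPM in the cDC1-like cells), 63.8% of Mgl2 (985 CPM), 70.2% of Cd209a (357 CPM) and 77.4% of Epcam (2046 CPM), and 122 of their 190 cells were those of sub-cluster 2. Mgl2 and Cd209a are on the cDC2 list by which these sub-clusters were grouped, so their shares are in part built in. The share of Ccl17 rests on the clustering: at a coarser resolution of 0.25, the class named cDC2-like by the count of markers held 40.2% of the Ccl17 UMIs and the class named classical monocyte-like 52.2%. Irf4 was at 84.3 CPM there and at 3.73 CPM in the cDC1-like cells. Both together also carried macrophage genes at a middle level, with C1qa at 1363 CPM and Mrc1 at 434 CPM, against 6161 and 521 CPM in the macrophage-like and 117 and 1.24 CPM in the cDC1-like cells. Csf1r was at 200 CPM there, at 476 CPM in the macrophage-like and at 21.8 CPM in the cDC1-like cells. Asgr2, high in the whole cluster, was at 3303 CPM in sub-clusters 2 and 5 and 2513 CPM in the macrophage-like cells, and at 10.7 CPM in the cDC1-like cells.

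Il1b and Cd14, the naming genes, came mostly from the macrophage-like cells and sub-clusters 2 and 5. Il1b was at 5912 CPM in the macrophage-like, 3566 in the classical monocyte-like cells and 3479 in sub-clusters 2 and 5, but at 581 in the cDC1-like and 283 in the mature dendritic cell-like cells. The macrophage-like cells, 17.9% of the total, held 42.9% of the Il1b UMIs and 48.8% of the Cd14 UMIs, sub-clusters 2 and 5 40.8% and 41.3%, and the cDC1-like cells, 46.0% of the total, 12.3% and 5.03%. Cd14 was at 3399 CPM in the macrophage-like and at 120 CPM in the cDC1-like cells. Il1r2 was at 557 CPM in sub-clusters 2 and 5, 417 in the macrophage-like and 35.0 in the cDC1-like cells. The mature dendritic cell-like cells held 96.5% of the Fscn1 UMIs and 82.8% of the Ccr7 UMIs with 5.59% of the cells. That class took its name from a list that holds Fscn1 and Ccr7, so their shares in it are in part built in. All shares of UMIs given here rest on the clustering too, and the classes of other settings were named by the count of markers alone. At a resolution of 0.25 the macrophage-like class had 4.37% of cells and 8.74% of the Il1b UMIs, the cDC2-like class 9.14% and 21.9%, and the classical monocyte-like class held 34.9% of cells and 56.4% of Il1b and 63.1% of Cd14. With cells thinned before clustering, the macrophage-like class held 4.23% of cells and 8.63% of Il1b, the cDC2-like class 34.2% and 60.6%, and 17.0% of the Xcr1 UMIs lay in unnamed sub-clusters and 81.4% in the cDC1-like class. The cDC1-like class held at most 12.3% of Il1b and 5.03% of Cd14 in both.

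H2-Aa, the class II alpha chain, was high in the dendritic and macrophage classes (12796 to 14888 CPM) and at 971 CPM in the classical monocyte-like cells.

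**Figure D4:**
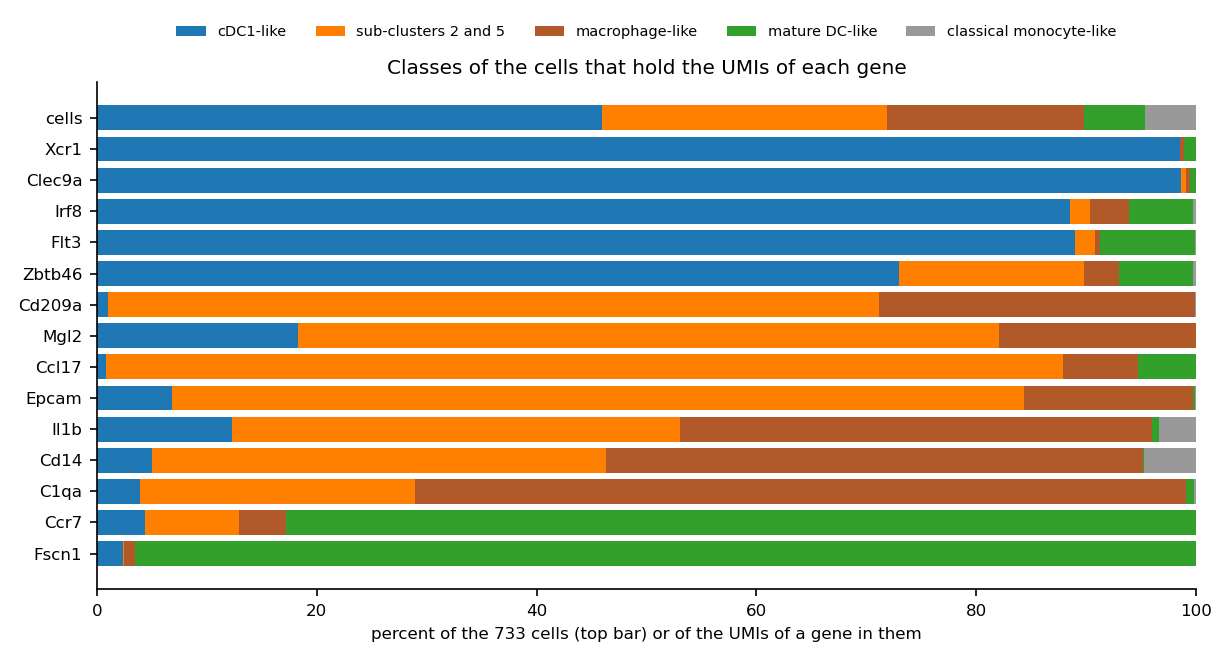
Share of the 733 CD14-IL1B cells in each class (top bar), with sub-clusters 2 and 5 as one class, and share of the UMIs of 14 genes that each class holds (percent, stacked bars to 100). The cDC1-like class has 46.0% of the cells, 98.5% of the Xcr1 UMIs and 12.3% of the Il1b UMIs. Classes took their names from lists that hold some of these genes, Xcr1 among them, so such shares are in part built in.

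Cells were also counted one at a time. To take depth out of it, each cell with at least 3000 UMIs was thinned at random to 3000 UMIs and counted when 1 or more UMIs of a gene remained. Xcr1 was found in 121 of the 446 long-term cells, 27.1% (23.1 to 31.5), in 67.1% of the T22 cells (58.8 to 74.8) and in 35.4% of the T127 cells (27.6 to 43.8). In the other 6 clusters the shares were 0.382%, 1.83% and 0.467%. Malignant cells, which should lack the gene and give the background of free RNA, had it in 1 of 6862 long-term cells (0.0146%, median depth 18461.5 UMIs before thinning), 0 of 1954 T22 cells and 0 of 4878 T127 cells, and B cells in 1 of 44 (2.27%, median depth 4412.5 UMIs, 265 cells too shallow to use). Without thinning the CD14-IL1B shares were 36.1%, 80.4% and 51.4%.

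Clec9a was found in 8.30%, 27.3% and 18.8% and Flt3 in 7.17%, 31.5% and 20.1% of the long-term, T22 and T127 cells, against 0.125%, 0.993% and 0.570% (Clec9a) and 0.335%, 2.901% and 0.933% (Flt3) in the other 6 clusters. Cd209a was found in 18.6% of the long-term and 18.8% of the T127 cells but in 3.50% of the T22 cells, close to the 3.24% of the other 6 T22 clusters. Mgl2 was found in 55.2%, 6.99% and 52.1%, against 11.8%, 5.305% and 23.8% of the other 6 clusters. Ccl17 was found in 35.7%, 5.59% and 31.9%, against 3.30%, 1.27% and 12.2%, and in 3.73% of long-term and 0.246% of T127 malignant cells. The T22 share of Ccl17 was 8 of 143 cells (2.45 to 10.7), beside 7.98% in T22 malignant cells and 0 of 17 T22 B cells. Il1b was found in 61.0%, 44.1% and 70.1% of CD14-IL1B cells against 71.8%, 58.6% and 77.6% of the other 6 clusters, and Cd14 in 59.9%, 23.1% and 52.1% against 82.9%, 67.0% and 90.4%. Malignant cells had Il1b in 6.15%, 1.95% and 1.35% and Cd14 in 16.4%, 7.73% and 8.90% in the same order. How much of this was free RNA and how much the malignant cells' own was not tested. Cells with both Xcr1 and Cd209a were 0 of 446, 0 of 143 and 0 of 144 after thinning, and 2, 0 and 0 without it. The count of 0 in the long-term cells limits only cells with a UMI of both at that depth (up to 0.824%), not cells that express both. Cells with both Xcr1 and Ccl17 were 2, 1 and 2 after thinning and 8, 6 and 7 without it.

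The T22 and T127 models could be set side by side in the short-term pools, but each model was 1 sample, its 4 pools were taken as captures of the same tumors, and model and pool could not be told apart. Of 7563 genes, 290 (3.83%) were past 2-fold higher in T22 CD14-IL1B cells and 637 (8.42%) in T127. The median log2 ratio of T22 over T127 was -0.21, and when it was set to 0, T22-higher genes made up 50.2% of those past 2-fold in place of 31.3%. Pool values did not overlap for 461 genes higher in T22 (6.1%) and 1442 higher in T127 (19.1%).

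Xcr1, Clec9a and the shared dendritic cell gene Flt3 were higher in T22. Xcr1 was at 575 CPM in T22 and 312 CPM in T127, a ratio of 1.84 (1.69 to 2.01), Clec9a at 155 and 68.1 CPM (2.28, 1.90 to 2.74) and Flt3 at 156 and 98.7 CPM (1.58, 1.35 to 1.86), and for each the lowest T22 pool lay above the highest T127 pool. Only Clec9a of these was past 2-fold. Batf3 (1.59) and H2-Oa (1.599) behaved likewise, while Zbtb46 (1.14), Irf8 (0.884), Wdfy4 (1.27), Ccr7 (0.820) and Fscn1 (0.585) had overlapping pools. Xcr1, Clec9a and Flt3 were also higher in T22 in the other 6 clusters. Xcr1 was at 16.6 CPM in T22 and 1.79 CPM in T127 there, Clec9a at 5.32 and 1.25 CPM and Flt3 at 14.8 and 4.38 CPM.

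The 4 marker genes of the cluster, Cd209a, Il1r2 and Epcam were higher in T127, with no overlap between pools. Mgl2 was at 35.0 CPM in T22 and 508 CPM in T127 (0.0689, 0.0555 to 0.0847), Cd209a at 16.4 and 208 CPM (0.0789, 0.0571 to 0.107), Ccl17 at 183 and 1514 CPM (0.121, 0.110 to 0.133) and Il1r2 at a ratio of 0.0741. Cd14 was at 311 and 1097 CPM (0.283, 0.262 to 0.306), Epcam at 167 and 636 CPM (0.263) and Il1b at 1035 and 2276 CPM (0.455, 0.435 to 0.476). All of these genes were also higher in T127 in the other 6 clusters. There Ccl17 was at 18.4 CPM in T22 and 525 CPM in T127, and Mgl2 at 51.7 and 301 CPM. Cd209a was at 45.4 and 90.7 CPM, Il1r2 at 26.1 and 205 CPM and Epcam at 104 and 246 CPM. Cd14 was at 1068 and 2526 CPM and Il1b at 2220 and 3307 CPM. Macrophage genes were mixed in the CD14-IL1B cells. C1qa was higher in T22, at a ratio of 2.898 with no overlap between pools, Csf1r was at 0.993 with overlapping pools, and Mrc1 was higher in T127. The 12 macrophage genes summed to 1953 CPM in T22 and 1291 CPM in T127.

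Values within sub-clusters 1, 4, 6 and 7 can be set beside these. They held 106 T22 and 73 T127 cells, and different ones held most of them, since 77 of the T22 cells were in sub-cluster 4 and 58 of the T127 cells in sub-cluster 6. Within these 4 sub-clusters Il1b was at 682 CPM in T22 and 623 CPM in T127 (1.09, 1.00 to 1.19) and Flt3 at 179 and 167 CPM (1.07, 0.905 to 1.27). Xcr1 was at 719 and 588 CPM (1.22, 1.12 to 1.34), Clec9a at 196 and 128 CPM (1.53) and Cd14 at 126 and 162 CPM (0.775), each nearer to 1 than over all cells. Mgl2 stayed far apart, at 30.5 and 217 CPM (0.140), as did Ccl17, at 5.01 and 46.7 CPM (0.107), and Il1r2, at 11.4 and 91.1 CPM (0.125). Cd209a had 3 UMIs in T22 and 11 in T127. Epcam reversed, being higher in T22 within these sub-clusters, at 139 and 27.6 CPM (5.06, 3.58 to 7.36).

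Genes were ranked among those at 50 CPM or more in the higher model whose pool values did not overlap between the models. The 10 with the largest ratios towards T22 were Wfdc18, Cxcl9, Il1a, H2-M2, Dnase1l3, Serpina3g, Hist1h4h, Rps29, Rps28 and Rps27rt. Cxcl9, an interferon-induced attractant of Cxcr3-bearing T cells, was at 313 CPM in T22 (pools 108 to 663) and 18.1 CPM in T127 (1.5997 to 34.7). Dnase1l3, a secreted DNase of dendritic cells and macrophages, was at 580 and 85.4 CPM, 6.80-fold (5.89 to 7.88), with T22 pools from 497 to 773 and T127 pools from 64.1 to 100.2 CPM. Wfdc18 was at 88.6 CPM in T22 and had 1 UMI in T127, a ratio of 220 with a counting interval from 39.1 to 8726. Rps29 was at 4967 and 986 CPM and Rps28 at 1807 and 368 CPM.

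By the same rule, the 10 with the largest ratios towards T127 were Asgr2, Ifitm1, AA467197, Fcrls, Mrc1, Dok2, Cish, Ptx3, Trp53i11 and Igflr1. Asgr2 was at 1098 CPM in T127 (pools 422 to 1564) and 5.36 CPM in T22 (0 to 8.39). Ifitm1 was at 663 CPM in T127 (293 to 939) and 9.29 CPM in T22 (5.1996 to 15.9), and stayed so within sub-clusters 1, 4, 6 and 7, at 991 and 8.66 CPM. Mrc1 was at 284 and 5.36 CPM and Cish, which restrains cytokine signalling, at 119 and 3.22 CPM.

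The same genes were looked up in the other 6 clusters. Of all 7563 genes, 349 (4.61%) were past 2-fold higher in T22 there and 627 (8.29%) in T127. Of the 290 genes higher in T22, 183 (63.1%) were past 2-fold in the same direction in the other 6 clusters, and of the 637 higher in T127, 314 (49.3%). Of the named genes this held for 9 of 10 and 10 of 10. Rps29, for one, was at 4474 and 831 CPM in the other 6 clusters of T22 and T127, Il1a at 268 and 16.6 CPM, Asgr2 at 6.66 and 388 CPM and Mrc1 at 81.9 and 891 CPM. Cxcl9 was the one T22-higher gene that did not pass 2-fold there, at 96.7 and 61.9 CPM. Within sub-clusters 1, 4, 6 and 7, 9 of the 10 T22-higher and 3 of the 10 T127-higher genes (Ifitm1, Cish and Trp53i11) were at 10 CPM or more and past 2-fold in the same direction. Trp53i11 rested on 2 UMIs in T22 and 15 in T127. The genes had been chosen on these same cells among others, and no share over all genes stands beside these counts, so they only describe.

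**Figure D5:**
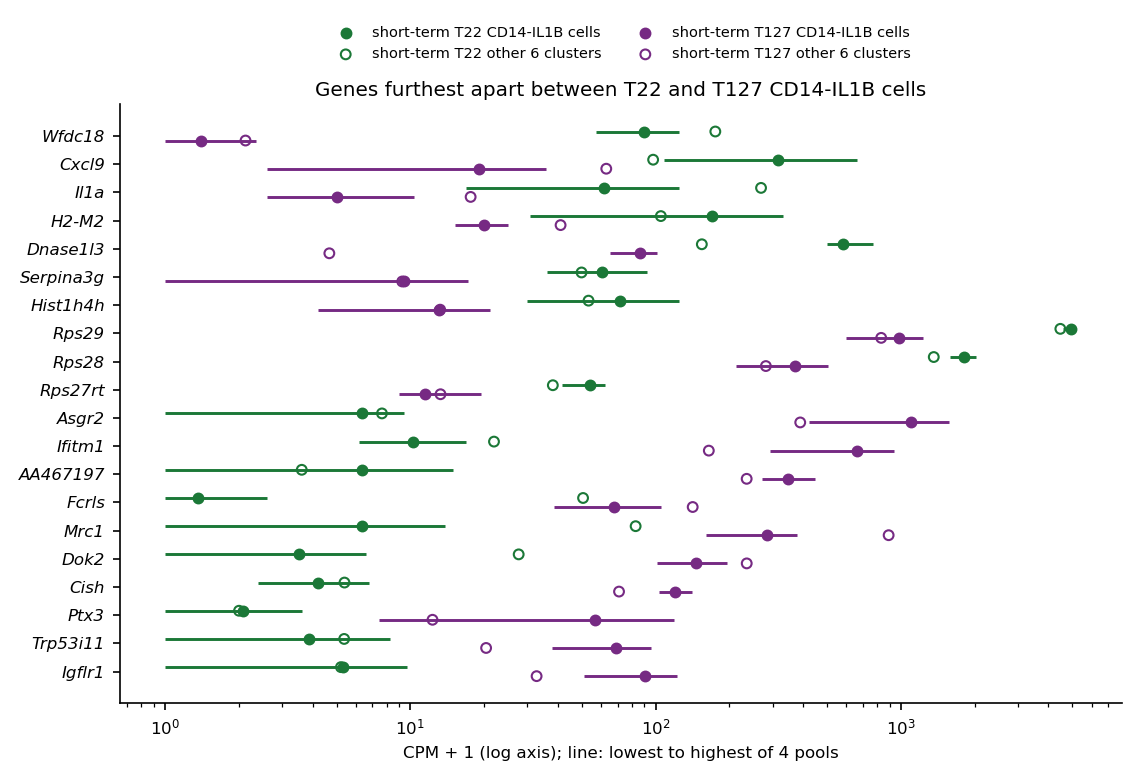
Level of the 20 genes furthest apart between the models (CPM plus 1, logarithmic axis) in CD14-IL1B cells of the short-term T22 (green) and T127 (purple) pools, with filled points for all pools together, lines from the lowest to the highest pool and open points for the other 6 clusters. The genes were chosen so that the lines of the 2 models do not overlap. The open points lie in the same order for all 20 genes.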

How the data were processed

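Tumor cells were captured with the 10x Genomics 3' assay. Per the study's methods, the authors made the deposited counts, unique molecular identifiers (UMIs) per gene and cell, with Cell Ranger 6.0.0 on the mouse genome GRCm38 with introns included, left out cells with under 1000 genes (400 in the reporting summary) or over 20% mitochondrial UMIs, and removed doublets with Scrublet. Of the deposited cells none had under 400 genes, and 2245 T22 cells of the other 6 clusters had under 1000. They grouped cells by Leiden clustering and deposited the cluster names used here. Their normalized table of 4000 variable genes was not used. Doublets were not called again.

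UMIs of 32285 genes were summed per cluster and group of pools and scaled to a total of 1000000 (CPM). Calls past 2-fold, log2 ratios and rankings used a pseudocount of 1 CPM, and calls used genes at 10 CPM or more in either side. Ratios and folds printed beside CPM values had no pseudocount, except the folds of the leading genes of sub-clusters. Intervals (95%, exact Poisson, Clopper-Pearson or conditional binomial) cover counting error only. No test was run, because cells are not replicates and no file used here gave their tumor. Totals of 34755906 to 55600377 UMIs a pool set the depth, and CD14-IL1B cells had 3185 to 39026 UMIs each. A 16-base barcode shared by long-term pools was kept at its deepest copy.

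Sub-clusters came from Leiden clustering at a resolution of 0.5 on 2000 variable genes, 30 principal components and 20 neighbours, without the 259 hand-listed genes. No correction for experiment or pool was made. The code was tested on simulated data. The members and gene lists were chosen with earlier results of these data known, the sub-cluster naming rule after the sub-clusters were seen, and 6 lists were taken from the study, which chose them on these samples. Genes were named if they belonged to the 4 markers or to a list (the highest or furthest from the other clusters, up to 6, plus 7 defining dendritic cell genes), to the 15 highest and 10 lowest ratios at 50 CPM or more with one sign in all 8 long-term pools, to the 10 largest ratios between T22 and T127 each way, or to the 10 leading genes of a sub-cluster. Ratios between T22 and T127 were ranked among genes at 50 CPM or more in the higher model whose pools did not overlap. Other genes given in the text, such as those set beside the named genes across classes or models, were chosen after their values were seen. Alternatives were other filters, pseudocounts, scalings, depths, resolutions and leaving out each pool. The scripts ran under Python 3.11.15. Clusters were made with leidenalg 0.10.2, igraph 0.11.9 and scikit-learn 1.9.0, intervals with scipy 1.17.1, sums with numpy 2.4.6 and pandas 2.3.3, and plots with matplotlib 3.10.9.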

Additional observations from a re-analysis of the deposited data

Results flagged for a closer look

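Of 56 results looked at, 2 stood out, and chance alone marks about 1 in 20 groups of pools as holding a far value. Flt3 in the CD14-IL1B cells of T22 pool 2 was at 200.2 CPM, while the other 3 T22 pools lay between 137 and 141 CPM. Cd209a differed in direction between the models: its log2 ratio of CD14-IL1B cells to the other 6 clusters was -1.41 in T22, where every pool was below 0, and 1.19 in T127, where every pool was above 0. The difference was not tested.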

How the results depend on the processing

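Of 511 values recomputed for 44 results under other settings, 457 stayed within the limits set for a change and none reversed. The limits were 1.5 times for counts of genes, the 95% interval for shares of sub-cluster classes, and 1 SD over pools for other shares, log2 ratios and list medians. The 54 others follow, and beyond what a setting's own construction shows, such as fewer genes or cells counted, the cause was not tested. With every low gene kept, the genes higher and lower in CD14-IL1B cells were 601 and 856 in the long-term pools, 739 and 1751 in T22, and 716 and 1521 in T127, and between the models 855 were higher in T22 and 1211 in T127. With a pseudocount of 10 CPM these were 219 and 289, 311 and 579, 241 and 564, and 159 and 308, and the long-term medians of the cDC1 and shared dendritic cell lists were 1.97 and 1.26. With the median ratio set to 0, 436 genes were higher in T22. With the other 6 clusters weighted equally, the shared dendritic cell list had a median of 1.70. The T22 share of CD14-IL1B cells was 2.55% among cells with 1000 genes or more, and of all non-malignant cells the shares were 1.09% in T22 and 4.602% in T127.

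Without thinning, the shares of cells with a UMI were, in the long-term pools, Xcr1 36.1%, Cd209a 26.7%, Il1b 75.3% and Ly6c2 7.85%, in T22 Xcr1 80.4%, Ccl17 8.39%, Il1b 66.4% and Ly6c2 4.90%, and in T127 Xcr1 51.4%, Il1b 81.9% and Ly6c2 11.1%. Thinned to 1500 UMIs, Xcr1 was at 17.9% (long-term) and 49.0% (T22), and Il1b at 36.4% (T22) and 59.7% (T127). With classes named by the count of markers alone, at a clustering resolution of 0.25 the cDC2-like cells were 9.14%, the classical monocyte-like 34.9% and the macrophage-like 4.37% of all, and with cells thinned before clustering the cDC1-like were 40.1%, cDC2-like 34.2%, macrophage-like 4.23% and unnamed 10.6%. An alternative added after the data were seen kept the members in sub-clusters with dendritic cell names by the count of markers (sub-cluster 2 included), and gave 834 lower genes, log2 ratios of -1.0004 (Il1b), -1.10 (Cd14) and 4.34 (Ccl17), and medians of 3.18 (cDC1), -2.72 (classical monocyte), -3.32 (macrophage) and -0.78 (interleukin-1) in the long-term pools. With sub-clusters 1, 4, 6 and 7 alone, also added, 370 genes were higher in T127.

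Leaving out each pool in turn gave 351 to 374 higher and 519 to 560 lower genes in the long-term pools, 453 to 485 and 993 to 1132 in T22, 385 to 423 and 890 to 959 in T127, and 276 to 340 higher in T22 and 636 to 734 in T127 between the models. CD14-IL1B shares were 2.66% to 3.10%, 1.78% to 1.86% and 6.08% to 7.11%, the long-term cDC1 median was 2.77 to 2.85, and the thinned Xcr1 share was 26.3% to 28.9% in the long-term pools, 63.6% to 70.2% in T22 and 31.9% to 40.2% in T127. No paired analysis was possible because no result came from a test and pool numbers tie no pools of different experiments together.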
